A study of Mus musculus with 12 samples.

Results

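The Hox genes encode homeodomain transcription factors that set position along the body axis. In mammals they lie in 4 clusters, Hoxa to Hoxd, and within a cluster the genes are switched on in the order of their paralogue numbers, low numbers first and towards the head, high numbers later and towards the tail. The caudal genes Cdx1, Cdx2 and Cdx4 encode related homeodomain factors that act upstream of the trunk Hox genes in the posterior embryo. In pluripotent cells the clusters are known to be kept silent by Polycomb complexes.

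All probe sets were taken whose only gene symbol in the platform annotation was a Hox gene of the 4 clusters, Cdx1, Cdx2 or Cdx4, with no filter on signal. A probe set is a group of short oligonucleotides on the array that reads 1 transcript or transcript end. This gave 52 probe sets for 36 genes, of 18193 genes with such a probe set, namely 48 probe sets for 33 Hox genes and 4 for the 3 Cdx genes. Other Hox genes were not analysed here. By chromosome, Hoxa lies on 6, Hoxb on 11, Hoxc on 15, Hoxd on 2, Cdx1 on 18, Cdx2 on 5 and Cdx4 on X.

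The measurements came from 12 Affymetrix mouse 430 2.0 arrays of epiblast stem cells (EpiSCs), cultured cells that resemble the epiblast after implantation. The 4 groups, with 3 biological replicates each by their titles, were haploid EpiSC-2 and haploid EpiSC-1 of strain 129Sv, and diploid EpiSC-2 and diploid EpiSC-1 of strain B6D2F1. The N2B27 culture medium of all groups held bFGF and Activin A, and no other treatment or allele was labelled. The titles' numbers were taken to mark separate lines of a ploidy, and because ploidy and strain divide the arrays identically, they cannot be told apart. How the lines were derived, and whether haploid cells were sorted by DNA content before RNA was taken, is not given in the sources used here. Nothing in the labels says that replicates came from separate cultures, so the p-values measure only the spread between these samples.

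Signals were MAS5 intensities on a linear scale. The median of an array lay between 63.6 and 76.5. Correlations of log2 signals were taken only over the brighter probe sets, with a mean log2 signal at or above the median of such means. On these, 2 arrays of the same line had a correlation of 0.987 to 0.990, above the highest value of 0.960 for arrays of different lines. Most Hox and Cdx probe sets were dimmer and were left out, so these correlations do not describe them. Of 18 epiblast stem cell markers, 18 in haploid EpiSC-2, 17 in haploid EpiSC-1 and all 18 in both diploid lines exceeded the median of all probe sets in that line. That median, 65.6 in haploid EpiSC-2, 73.9 in haploid EpiSC-1, 64.5 in diploid EpiSC-2 and 63.8 in diploid EpiSC-1, served as the mark for a signal above background. Olfactory receptor probe sets, which stand for genes that these cells are not known to use, were dimmer, with medians of 11.4 to 15.7 and 95th percentiles of 25.4 to 35.4. Signals of different probe sets are not comparable as levels, so the tests compared each probe set only with itself across lines. The background marks and the sums of marker signals given below do combine different probe sets, and are descriptions only. In haploid EpiSC-1 the markers Otx2 and Fgf5 averaged 73.99 and 86.9, close to that line's mark of 73.9. Otx2 averaged 2290 in haploid EpiSC-2, 2133 in diploid EpiSC-2 and 3962 in diploid EpiSC-1. Fgf5 averaged 2424, 2332 and 3621 in the same lines.

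Hox genes of all 4 clusters and Cdx2 were higher in the haploid lines, and no member fell. Of the 52 probe sets, 28 (25 genes) rose at an adjusted p under 0.05, where 8.77% of all 45037 probe sets rose, and none fell, where 6.41% of all fell. The test was limma on log2(signal + 32) with the lines as a random block, and every difference given here is on that scale, which understates the change of dim probe sets, unless another is named. On it the median haploid minus diploid difference of the 52 probe sets was 1.18, beside 0.01 over all probe sets. All 6 haploid arrays stood above all 6 diploid arrays in 27 member probe sets (24 genes), an arrangement that 9.12% of all probe sets showed (6.87% had the reverse, and no member did), and 26 of these (23 genes) were also among the calls. With each line reduced to its mean, 2 lines against 2, 15 probe sets (13 genes) still passed, and none fell, beside 1.44% of all probe sets that rose and 0.684% that fell in that fit. Data were also simulated in which the lines themselves varied, by a common spread taken from the diploid lines. On these the random block fit called more unchanged probe sets than changed ones, while the fit of line means kept false calls near the threshold. The spread between lines was the same for every simulated probe set, and only probe sets brighter than the median were changed. Most members are dimmer, so how well the fit of line means serves them was not tested. The random block p-values were too small in that setting and are taken as too small here, so counts with line means are given as well. In bulk samples, fewer cells of a type and less RNA per cell cannot be told apart.

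Most diploid signals of the members were near background. The median over 312 diploid measurements of members was 14.6, within the range of the olfactory receptor medians. Some member probe sets exceeded the olfactory receptor 95th percentile of their line, 35.4 in diploid EpiSC-2 and 25.4 in diploid EpiSC-1. Among them were Hoxd8 1431099_at, with means of 44.6 and 32.7 in these lines, and Hoxd13 1440626_at, with 35.5 and 48.8. How many did so was not counted. Hoxa5 was the only gene above the array-wide median in diploid EpiSC-1, and Hoxa5 and Hoxa3 were the only ones in diploid EpiSC-2. In haploid EpiSC-2 23 genes were above it and in haploid EpiSC-1 26. For 22 genes at least 1 probe set was above it in both haploid lines and in neither diploid line, namely 1 Cdx, 5 Hoxa, 5 Hoxb, 6 Hoxc and 5 Hoxd genes. Hoxa3 and Hoxa5 are among these by 1427433_s_at and 1448926_at, while another probe set of each was above it in a diploid line. The share of all genes with this pattern was not counted.

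**Figure D1:**
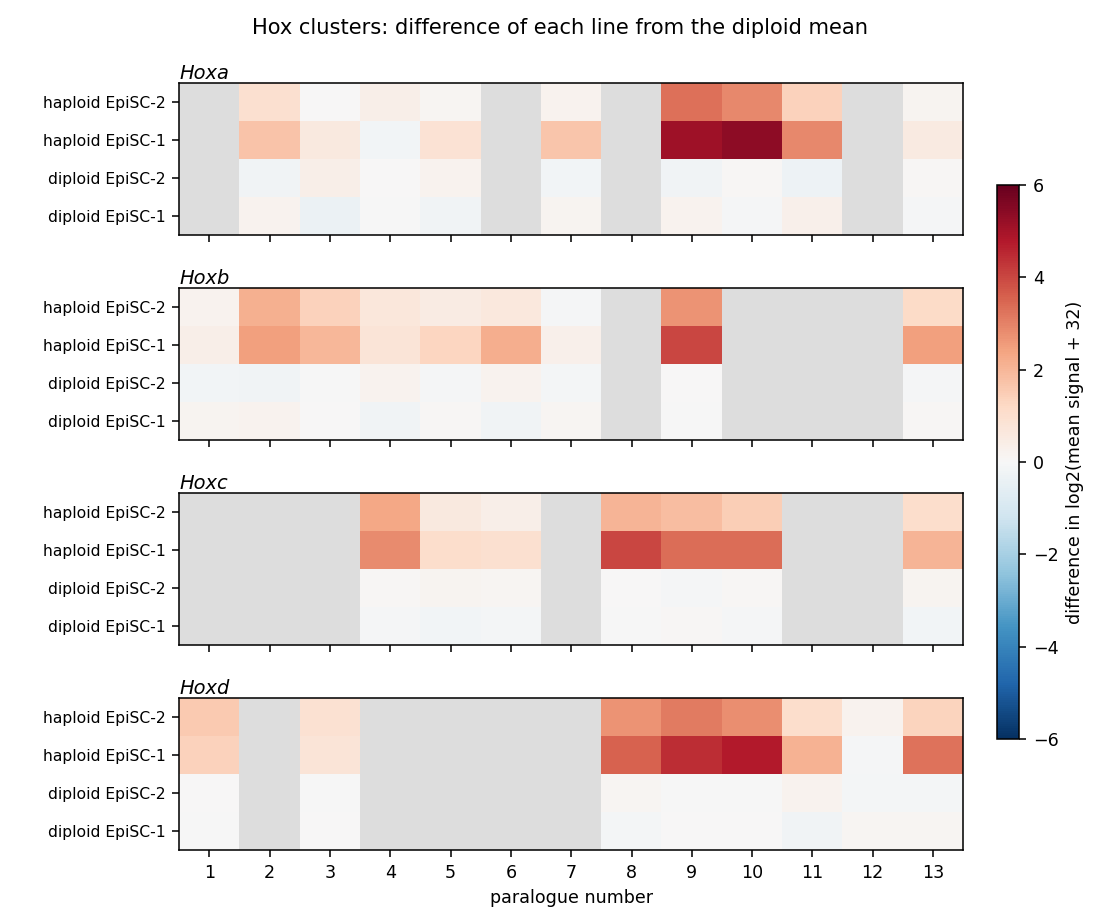
Each panel is a Hox cluster, each column a paralogue number and each row a line. Colour gives the difference of the line from the mean of the 2 diploid lines in log2(mean signal + 32), for the brightest probe set of each gene, and grey marks numbers not analysed here. Red fills both haploid rows from Hoxa9 to Hoxa11, at Hoxb2, Hoxb3 and Hoxb9, from Hoxc8 to Hoxc10 and from Hoxd8 to Hoxd11, and is deeper in haploid EpiSC-1 for paralogues 8 to 11. The brightest probe sets of Hoxa3 and Hoxa5, used in the map, are not the ones that rose.

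Of the caudal genes, Cdx2 rose and Cdx1 and Cdx4 did not pass the test. Cdx2 directs both posterior axis growth and the trophoblast lineage in the mouse embryo. Cdx2 (1422075_at, Entrez 12591) had signals of 374, 342 and 354 in haploid EpiSC-2 and 997, 883 and 1093 in haploid EpiSC-1, against 3.49, 30.6 and 3.83 in diploid EpiSC-2 and 13.7, 25.3 and 11.8 in diploid EpiSC-1. Every haploid array was far above the array-wide median and every diploid array lay below all of them, and the difference was 3.78 ± 0.35 (SE), adjusted p = 1.40e-06. Its second probe set, 1422074_at, gave 89.5, 53.1 and 98.2 in haploid EpiSC-2 and 288, 248 and 280.0 in haploid EpiSC-1, against 4.52, 4.63 and 3.67 in diploid EpiSC-2 and 6.73, 3.58 and 5.90 in diploid EpiSC-1. It also did not overlap between ploidies and differed by 2.31 ± 0.34 (SE), adjusted p = 0.000139. Both remained called over every alternative that tested them, with an adjusted p of 0.0108 and 0.0466 at the highest, from line means as the units.

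For Cdx1 (1449582_at, Entrez 12590), haploid EpiSC-2 gave 23.2, 4.47 and 6.28 and haploid EpiSC-1 gave 7.36, 6.11 and 1.61, while diploid EpiSC-2 gave 22.3, 4.53 and 24.1 and diploid EpiSC-1 gave 29.7, 7.99 and 6.27. Cdx1, a retinoic acid and Wnt responsive member, stayed far below the array-wide median on every array, with overlapping groups and a difference of -0.24 ± 0.27 (SE), adjusted p = 0.752. Cdx4 (1421552_at, Entrez 12592) measured 7.95, 16.2 and 1.24 in haploid EpiSC-2, 17.5, 20.6 and 10.1 in haploid EpiSC-1, 1.42, 13.5 and 20.4 in diploid EpiSC-2 and 10.3, 0.427 and 14.9 in diploid EpiSC-1. Cdx4, which acts with Cdx2 in blood and axis formation, overlapped between all lines and differed by 0.08 ± 0.25 (SE), adjusted p = 0.946. Neither gene passed the array-wide median in any line.

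The promoters of Cdx2 and Cdx4 are shown because the 2 genes differ in outcome, Cdx2 rising and Cdx4 staying near background, while sharing a run of letters. Both are from RefSeq on GRCm38.p6 and cover the 250 bases before the annotated start, read in the direction of the gene. The stretch for Cdx2 is chr5:147307250-147307499 on the minus strand and that for Cdx4 is chrX:103321148-103321397 on the plus strand. Capitals mark ATGCAAAT, the octamer that POU factors such as Oct4 bind. This motif was added after the Cdx2 sequence had been read.
Cdx2: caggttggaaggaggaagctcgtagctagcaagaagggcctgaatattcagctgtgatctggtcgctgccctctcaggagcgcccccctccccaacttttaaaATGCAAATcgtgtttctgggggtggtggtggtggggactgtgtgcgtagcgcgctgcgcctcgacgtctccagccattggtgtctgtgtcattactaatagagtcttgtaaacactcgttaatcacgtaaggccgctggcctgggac
Cdx4: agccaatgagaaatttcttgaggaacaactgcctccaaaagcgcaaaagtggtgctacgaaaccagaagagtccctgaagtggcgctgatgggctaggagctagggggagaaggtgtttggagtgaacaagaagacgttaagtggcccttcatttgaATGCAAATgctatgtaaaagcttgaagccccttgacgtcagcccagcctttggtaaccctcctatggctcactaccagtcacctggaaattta
The octamer begins 147 bases before the start of Cdx2 and 93 bases before that of Cdx4. Among the 23 promoter entries of 21 member genes, these 2 held it on either strand, beside 1.6% of 32851 mouse promoters of the same length. A match is a description of the letters and says nothing of binding.

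In the Hoxa cluster 6 of 9 genes rose, and the highest differences lay at Hoxa9 and Hoxa10. Hoxa9 is a regulator of blood progenitors and of posterior identity. Hoxa9 (1455626_at, Entrez 15405) had signals of 397, 401 and 501 in haploid EpiSC-2 and 1456, 1560.2 and 1639 in haploid EpiSC-1, against 15.95, 4.21 and 3.61 in diploid EpiSC-2 and 28.2, 2.60 and 36.2 in diploid EpiSC-1. The haploid arrays were all far above the array-wide median and the diploid arrays all below it, with a difference of 4.23 ± 0.42 (SE), adjusted p = 2.56e-06. For Hoxa9 (1421579_at), haploid EpiSC-2 gave 96.9, 119.9 and 99.2 and haploid EpiSC-1 gave 313, 259.8 and 221, while diploid EpiSC-2 gave 10.99, 21.7 and 15.4 and diploid EpiSC-1 gave 75.2, 56.5 and 8.26. This second Hoxa9 probe set was dimmer, with the closest arrays of the 2 ploidies at 96.9 in haploid EpiSC-2 and 75.2 in diploid EpiSC-1, and differed by 1.77 ± 0.41 (SE), adjusted p = 0.00636. Hoxa10 (1431475_a_at, Entrez 15395) measured 395, 286 and 273 in haploid EpiSC-2, 1866, 2066 and 1971 in haploid EpiSC-1, 19.2, 33.4 and 3.52 in diploid EpiSC-2 and 11.5, 4.54 and 23.6 in diploid EpiSC-1. Hoxa10, needed for lumbar identity and for the uterus, differed by 4.15 ± 0.52 (SE) without overlap, adjusted p = 3.16e-05. Hoxa11 (1420414_at, Entrez 15396) had signals of 123, 112 and 117 in haploid EpiSC-2 and 392, 418 and 383 in haploid EpiSC-1, against 9.46, 9.92 and 23.6 in diploid EpiSC-2 and 54.3, 48.9 and 16.1 in diploid EpiSC-1. Hoxa11, which shapes the forearm and kidney, was apart in all arrays and differed by 2.16 ± 0.39 (SE), adjusted p = 0.000863.

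Hoxa2, Hoxa3 and Hoxa5, the lower-numbered genes of the cluster that passed, each rose through 1 probe set. For Hoxa5 (1448926_at, Entrez 15402), haploid EpiSC-2 gave 106, 76.2 and 79.6 and haploid EpiSC-1 gave 483, 385 and 446, while diploid EpiSC-2 gave 4.46, 5.06 and 7.84 and diploid EpiSC-1 gave 4.64, 19.7 and 19.8. Hoxa5, known for its part in lung development, differed by 2.50 ± 0.42 (SE), adjusted p = 0.000497, and its arrays did not overlap. Hoxa3 (1427433_s_at, Entrez 15400) measured 45.99, 91.2 and 61.1 in haploid EpiSC-2, 232, 159 and 223 in haploid EpiSC-1, 15.6, 6.82 and 18.4 in diploid EpiSC-2 and 9.12, 9.81 and 3.04 in diploid EpiSC-1. The arrays of this Hoxa3 probe set, for a gene needed in thymus and parathyroid formation, were apart by ploidy, with a difference of 1.83 ± 0.34 (SE), adjusted p = 0.00118. Hoxa2 (1419602_at, Entrez 15399) had signals of 51.97, 57.7 and 62.7 in haploid EpiSC-2 and 147, 91.1 and 120.3 in haploid EpiSC-1, against 2.24, 19.01 and 2.05 in diploid EpiSC-2 and 16.9, 20.5 and 24.5 in diploid EpiSC-1. Hoxa2, a hindbrain and branchial arch gene, differed by 1.35 ± 0.28 (SE), adjusted p = 0.00316, again with no overlap. With line means as the units Hoxa2, Hoxa3, Hoxa5, Hoxa11 and the dimmer Hoxa9 probe set lost their calls, at adjusted p values of 0.0797, 0.0743, 0.0849, 0.0844 and 0.0863, while the brighter Hoxa9 probe set and Hoxa10 kept theirs at 0.0134 and 0.034. Without haploid EpiSC-1 the dimmer Hoxa9 probe set also lost its call.

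Hoxa4, Hoxa7 and Hoxa13 did not pass. For Hoxa7 (1449499_at, Entrez 15404), haploid EpiSC-2 gave 23.2, 20.97 and 55.4 and haploid EpiSC-1 gave 122, 127 and 194, while diploid EpiSC-2 gave 12.4, 11.2 and 30.8 and diploid EpiSC-1 gave 6.76, 75.99 and 10.99. Hoxa7 overlapped between ploidies through 1 array of each diploid line, at 30.8 in diploid EpiSC-2 and 75.99 in diploid EpiSC-1. It differed by 1.01 ± 0.49 (SE), adjusted p = 0.222. The 2 probe sets of Hoxa4 stayed between 1.38 and 36.8 on all arrays, and the one of Hoxa13 between 11.7 and 56.2.

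**Figure D2:**
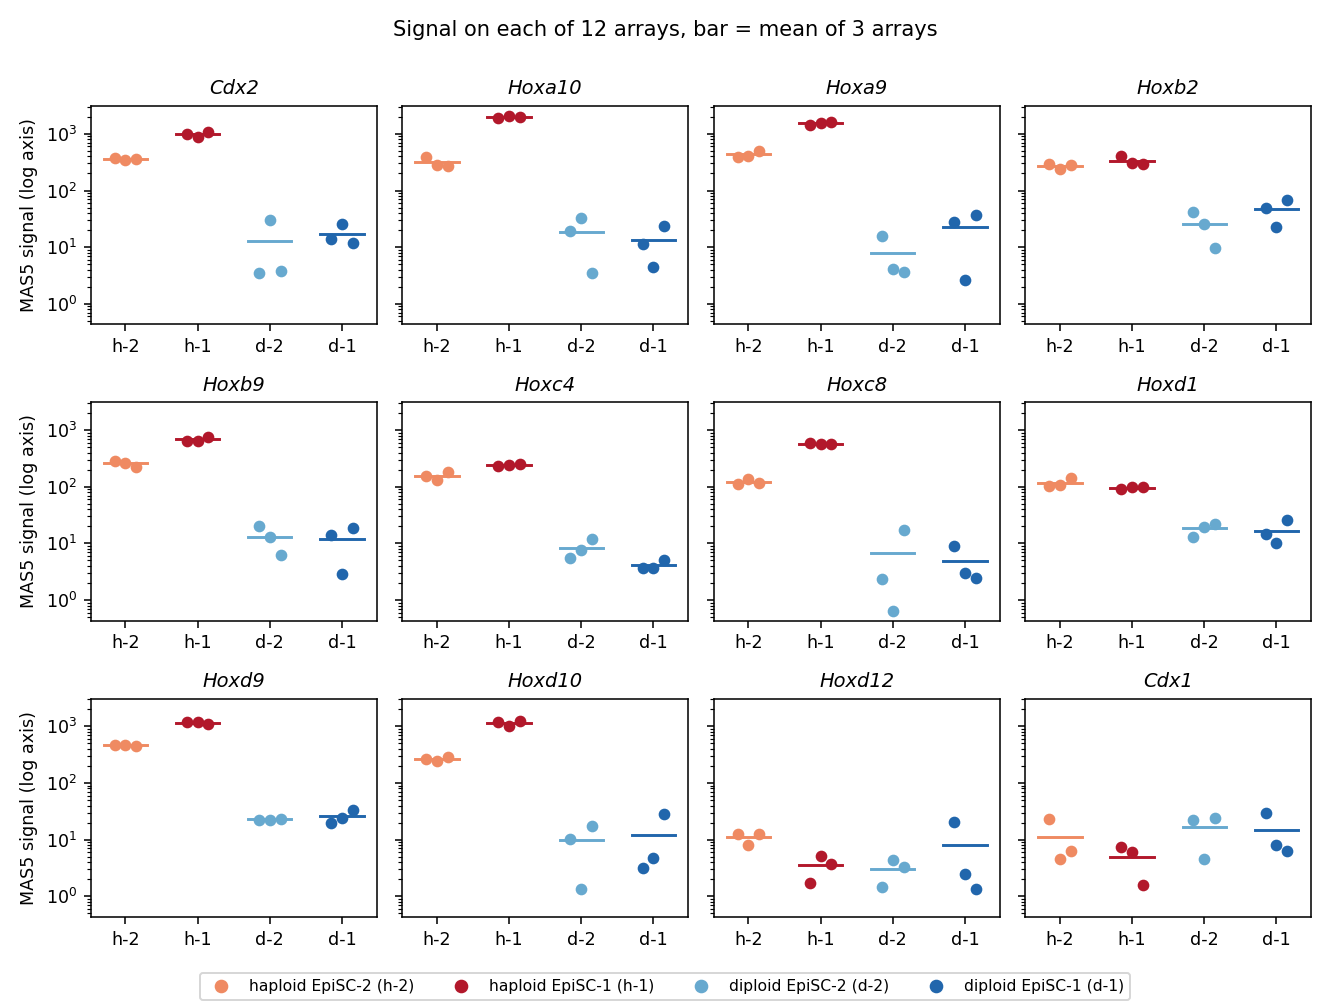
Points are MAS5 signals on single arrays, on a logarithmic axis shared by all panels, and bars are means of 3 arrays, for 1 probe set of each named gene. Haploid EpiSC-2 (h-2) and haploid EpiSC-1 (h-1) stand left of diploid EpiSC-2 (d-2) and diploid EpiSC-1 (d-1). Haploid points lie above all diploid points for Cdx2 and for the Hox genes shown other than Hoxd12, which like Cdx1 overlaps between ploidies.

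In the Hoxb cluster 5 of 9 genes rose, namely Hoxb2, Hoxb3, Hoxb6, Hoxb9 and Hoxb13. Hoxb9 (1452317_at, Entrez 15417) measured 287, 263 and 226 in haploid EpiSC-2, 646, 644 and 758 in haploid EpiSC-1, 20.7, 12.9 and 6.21 in diploid EpiSC-2 and 13.8, 2.91 and 19.1 in diploid EpiSC-1. Hoxb9, a thoracic patterning gene, was apart in all arrays and differed by 3.36 ± 0.32 (SE), adjusted p = 1.78e-06. Hoxb2 (1449397_at, Entrez 103889) had signals of 289.8, 236 and 279 in haploid EpiSC-2 and 413, 303 and 297 in haploid EpiSC-1, against 41.8, 25.6 and 9.51 in diploid EpiSC-2 and 49.2, 23.1 and 68.9 in diploid EpiSC-1. Hoxb2, which patterns hindbrain motor neurons, differed by 2.33 ± 0.31 (SE), adjusted p = 5.32e-05, with every haploid array above every diploid one and the haploid lines close to each other. For Hoxb3 (1456229_at, Entrez 15410), haploid EpiSC-2 gave 138, 167 and 143 and haploid EpiSC-1 gave 265, 224 and 249, while diploid EpiSC-2 gave 30.5, 36.5 and 43.4 and diploid EpiSC-1 gave 41.7, 29.8 and 40.2. Hoxb3, another hindbrain and pharyngeal gene, likewise did not overlap and differed by 1.70 ± 0.22 (SE), adjusted p = 4.20e-05. These 3 kept their calls over every alternative, with adjusted p values of at most 0.0129, 0.0125 and 0.037.

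Hoxb13 (1419576_at, Entrez 15408) measured 46.6, 98.4 and 59.3 in haploid EpiSC-2, 204, 205 and 237 in haploid EpiSC-1, 8.01, 11.3 and 11.1 in diploid EpiSC-2 and 27.5, 0.905 and 18.8 in diploid EpiSC-1. Hoxb13, a tail and prostate gene at the far end of the cluster, was apart by ploidy and differed by 1.82 ± 0.37 (SE), adjusted p = 0.00238. Hoxb6 (1451660_a_at, Entrez 15414) had signals of 39.5, 54.04 and 43.3 in haploid EpiSC-2 and 149, 235 and 188 in haploid EpiSC-1, against 35.5, 33.4 and 6.79 in diploid EpiSC-2 and 8.13, 2.95 and 21.97 in diploid EpiSC-1. The nearest arrays of Hoxb6, a gene of the thoracic trunk, were 39.5 in haploid EpiSC-2 and 35.5 in diploid EpiSC-2, and the difference was 1.43 ± 0.40 (SE), adjusted p = 0.0218. Both calls were lost with line means (0.0836 for Hoxb13 and 0.194 for Hoxb6), and that of Hoxb6 also without diploid EpiSC-1 and without haploid EpiSC-1, where its adjusted p was 0.239. Hoxb1, Hoxb4, Hoxb5 and Hoxb7 did not pass. One of the 2 Hoxb4 probe sets, 1460379_at, had all haploid arrays above all diploid arrays, with a difference of 0.74 ± 0.26 (SE) and an adjusted p of 0.0675. Hoxb5 differed by 0.90 ± 0.32 (SE), adjusted p = 0.0697.

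The Hoxc cluster had 6 of 7 genes higher, all but Hoxc6. For Hoxc8 (1452412_at, Entrez 15426), haploid EpiSC-2 gave 114, 136 and 118 and haploid EpiSC-1 gave 590.0, 565 and 567, while diploid EpiSC-2 gave 2.32, 0.648 and 17.3 and diploid EpiSC-1 gave 9.12, 2.96 and 2.47. Hoxc8, a gene of the thoracic spinal cord and ribs, was apart in all arrays and differed by 3.03 ± 0.41 (SE), adjusted p = 6.97e-05. Hoxc9 (1449867_at, Entrez 15427) measured 166, 84.3 and 123.8 in haploid EpiSC-2, 351, 426 and 472 in haploid EpiSC-1, 10.1, 12.8 and 6.36 in diploid EpiSC-2 and 14.5, 14.1 and 10.3 in diploid EpiSC-1. Hoxc9, which sets thoracic motor neuron identity, differed by 2.59 ± 0.36 (SE) without overlap, adjusted p = 9.41e-05. Hoxc4 (1422870_at, Entrez 15423) had signals of 156, 133 and 182 in haploid EpiSC-2 and 231, 240.4 and 248 in haploid EpiSC-1, against 5.49, 7.60 and 12.2 in diploid EpiSC-2 and 3.64, 3.71 and 5.15 in diploid EpiSC-1. Hoxc4, a gene of the cervical region, had the lowest p of the cluster, with a difference of 2.57 ± 0.22 (SE), adjusted p = 5.38e-07, and no overlap. For Hoxc10 (1439798_at, Entrez 209448), haploid EpiSC-2 gave 64.5, 98.7 and 70.1 and haploid EpiSC-1 gave 392, 325 and 384, while diploid EpiSC-2 gave 15.7, 8.68 and 5.39 and diploid EpiSC-1 gave 0.813, 12.4 and 1.42. Hoxc10, expressed in the lumbar region, was also apart by ploidy and differed by 2.41 ± 0.40 (SE), adjusted p = 0.000492.

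Hoxc13 (1425874_at, Entrez 15422) measured 61.1, 88.3 and 107 in haploid EpiSC-2, 209, 183 and 194 in haploid EpiSC-1, 63.3, 25.6 and 4.29 in diploid EpiSC-2 and 17.3, 19.2 and 16.2 in diploid EpiSC-1. Hoxc13, a hair and nail gene, overlapped between ploidies through 1 diploid EpiSC-2 array at 63.3, which lay above 1 haploid EpiSC-2 array, and differed by 1.59 ± 0.38 (SE), adjusted p = 0.00713. Hoxc5 was called through 1 of 3 probe sets, 1439885_at, with overlapping arrays and a difference of 0.80 ± 0.26 (SE), adjusted p = 0.043, and this call was lost under most alternatives. With line means Hoxc4, Hoxc8 and Hoxc9 kept their calls at 0.008, 0.0452 and 0.0413, while Hoxc10 (0.0799), Hoxc13 (0.0743) and Hoxc5 (0.137) did not. The call of Hoxc13 was also lost without haploid EpiSC-1. The 3 probe sets of Hoxc6 differed by 0.66, 0.60 and 0.90 and did not pass.

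In the Hoxd cluster 7 of 8 genes rose, with Hoxd12 the exception. Hoxd9 (1419126_at, Entrez 15438) had signals of 471, 460.0 and 446 in haploid EpiSC-2 and 1179, 1204 and 1119 in haploid EpiSC-1, against 22.4, 22.4 and 23.5 in diploid EpiSC-2 and 20.02, 24.3 and 33.9 in diploid EpiSC-1. Hoxd9, a gene of the lower trunk and limb, had the lowest p of all members, with a difference of 3.77 ± 0.27 (SE), adjusted p = 1.03e-07, and the arrays within each line lay close together. For Hoxd10 (1418606_at, Entrez 15430), haploid EpiSC-2 gave 261, 245 and 292 and haploid EpiSC-1 gave 1179, 1001 and 1225, while diploid EpiSC-2 gave 10.1, 1.35 and 17.6 and diploid EpiSC-1 gave 3.17, 4.81 and 28.7. Hoxd10, known in lumbar motor neurons and hindlimb, differed by 3.81 ± 0.43 (SE) with no overlap, adjusted p = 1.12e-05. Hoxd8 (1431099_at, Entrez 15437) measured 388, 458 and 443 in haploid EpiSC-2, 868, 739.9 and 762 in haploid EpiSC-1, 42.7, 43.4 and 47.6 in diploid EpiSC-2 and 41.8, 53.3 and 2.90 in diploid EpiSC-1. The second Hoxd8 probe set, 1433638_s_at, gave 199, 201 and 111 in haploid EpiSC-2 and 457, 505 and 345 in haploid EpiSC-1, against 28.8, 23.4 and 19.7 in diploid EpiSC-2 and 16.9, 18.6 and 2.67 in diploid EpiSC-1. Both Hoxd8 probe sets, for a gene of the thoracic trunk, were apart by ploidy and differed by 3.18 ± 0.34 (SE) and 2.61 ± 0.35 (SE), adjusted p = 5.53e-06 and 6.73e-05.

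Hoxd13 (1440626_at, Entrez 15433) had signals of 154, 198 and 107 in haploid EpiSC-2 and 635, 717 and 661 in haploid EpiSC-1, against 42.7, 42.5 and 21.3 in diploid EpiSC-2 and 33.3, 61.8 and 51.5 in diploid EpiSC-1. Hoxd13, the digit-forming gene at the end of the cluster, was apart in all arrays and differed by 2.29 ± 0.43 (SE), adjusted p = 0.00131. For Hoxd11 (1450584_at, Entrez 15431), haploid EpiSC-2 gave 72.3, 43.6 and 42.7 and haploid EpiSC-1 gave 159, 149.7 and 126, while diploid EpiSC-2 gave 2.10, 22.2 and 20.5 and diploid EpiSC-1 gave 3.30, 6.93 and 1.84. Hoxd11, a partner of Hoxa11 in the forearm, differed by 1.58 ± 0.32 (SE) without overlap, adjusted p = 0.00243. Hoxd1 (1420573_at, Entrez 15429) measured 102, 106 and 142 in haploid EpiSC-2, 90.99, 99.7 and 99.01 in haploid EpiSC-1, 13.1, 19.9 and 22.05 in diploid EpiSC-2 and 14.5, 10.2 and 25.6 in diploid EpiSC-1. Hoxd1, at the opposite end of the cluster and known in mouse pain-sensing neurons, differed by 1.48 ± 0.22 (SE), adjusted p = 0.000154, and its haploid EpiSC-2 arrays all lay above those of haploid EpiSC-1. Hoxd3 (1437664_at, Entrez 15434) had signals of 64.8, 72.2 and 80.9 in haploid EpiSC-2 and 49.2, 76.3 and 59.5 in haploid EpiSC-1, against 21.2, 43.2 and 3.44 in diploid EpiSC-2 and 28.7, 18.3 and 22.02 in diploid EpiSC-1. Hoxd3, a gene of the upper neck vertebrae, differed by 0.88 ± 0.29 (SE), adjusted p = 0.0472, and although its arrays did not overlap its call was lost under most alternatives. Line means kept Hoxd1, Hoxd8, Hoxd9 and Hoxd10, at adjusted p values of 0.0246, 0.00872 for 1431099_at and 0.0287 for 1433638_s_at, 0.00934 and 0.0235, and lost Hoxd3 (0.0928), Hoxd11 (0.0809) and Hoxd13 (0.109). For Hoxd12 (1450553_at, Entrez 15432), haploid EpiSC-2 gave 12.7, 8.16 and 12.5 and haploid EpiSC-1 gave 1.69, 5.18 and 3.74, while diploid EpiSC-2 gave 1.44, 4.30 and 3.35 and diploid EpiSC-1 gave 20.7, 2.52 and 1.35. Hoxd12 lay far below the array-wide median on every array although its neighbours on both sides rose, and differed by 0.08 ± 0.20 (SE), adjusted p = 0.93.

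Caudal and Hox proteins bind AT-rich letters, and Hoxd9 and Hoxd11 show a promoter without and one with such a match. Hoxd9 is printed as the member with the lowest p, at chr2:74697513-74697762 on the plus strand, and Hoxd11 at chr2:74679308-74679557 on the plus strand, both from RefSeq on GRCm38.p6. Capitals mark matches on either strand to TTTATG or TTTATT, letters of caudal and posterior Hox sites that share all but the last position.
Hoxd9: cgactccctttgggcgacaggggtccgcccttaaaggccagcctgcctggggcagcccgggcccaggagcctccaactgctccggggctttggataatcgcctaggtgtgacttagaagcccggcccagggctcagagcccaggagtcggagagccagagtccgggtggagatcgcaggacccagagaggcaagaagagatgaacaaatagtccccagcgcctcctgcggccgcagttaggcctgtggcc
Hoxd11: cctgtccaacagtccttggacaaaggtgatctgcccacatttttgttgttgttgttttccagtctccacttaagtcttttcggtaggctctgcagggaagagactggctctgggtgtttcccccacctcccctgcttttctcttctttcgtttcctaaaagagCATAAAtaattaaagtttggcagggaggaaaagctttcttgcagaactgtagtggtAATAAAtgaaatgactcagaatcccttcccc
In Hoxd11 the matches are on the opposite strand, TTTATG from 87 to 82 and TTTATT from 31 to 26 bases before the start. A second Hoxd11 start in the table, not printed, held neither. TTTATG was in 3 of the 23 member promoters (in 10.8% of all 32851), TTTATT in 3 (18.1%), the Meis letters TGACAG in 2 (15.9%) and the Pbx and Hox letters TGATTNAT in 2 (2.82%). Hoxd9 held none of the motifs searched, which says only that these letters are not in this window.

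**Figure D3:**
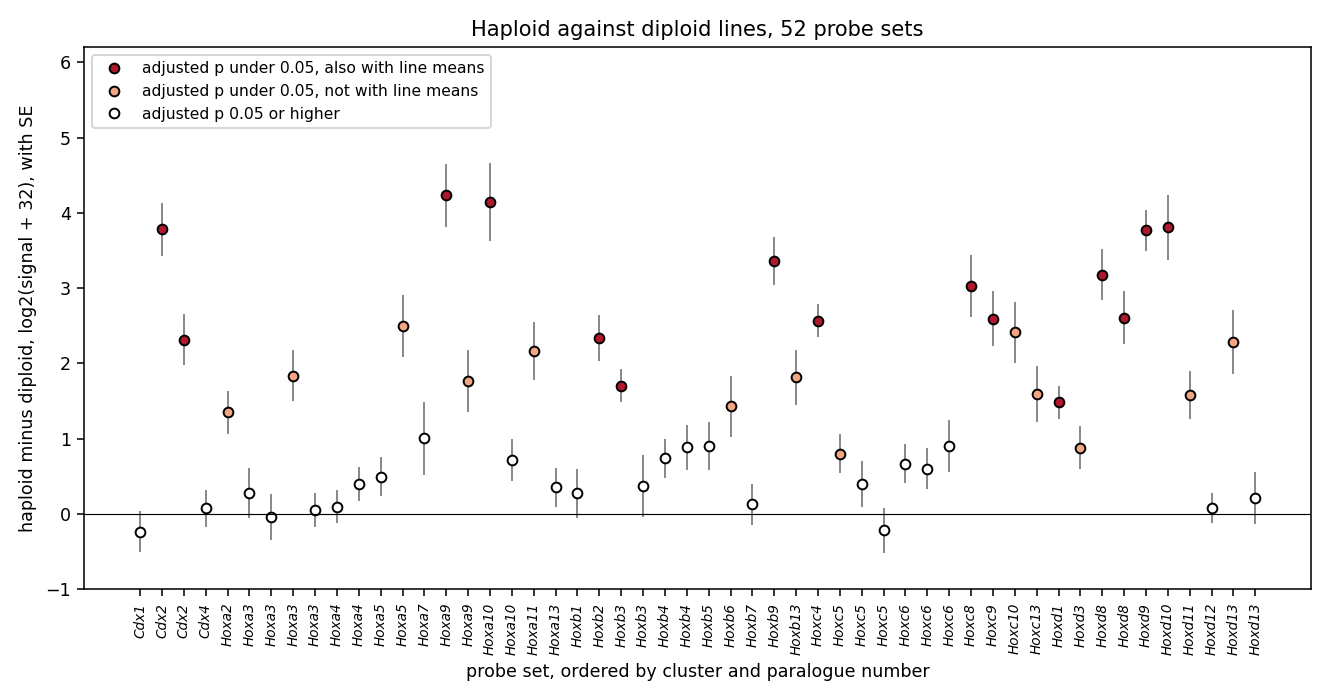
Points are haploid minus diploid differences in log2(signal + 32) with their standard errors for all 52 probe sets, ordered by cluster and paralogue number, and fill shows which passed an adjusted p of 0.05. The 28 filled points lie between 0.80 and 4.23, and the 24 open points between -0.24 and 1.005.

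Several genes were read by more than 1 probe set, and these did not always give the same answer. Of 12 such genes, all probe sets rose for 3 (Cdx2, Hoxa9 and Hoxd8), some rose for 6 (Hoxa3, Hoxa5, Hoxa10, Hoxb3, Hoxc5 and Hoxd13) and none passed for 3 (Hoxa4, Hoxb4 and Hoxc6). In Hoxa3 1 of 4 probe sets was called, and the others differed by 0.28, -0.04 and 0.05. The called Hoxa3 probe set, 1427433_s_at, and the second Hoxd8 probe set, 1433638_s_at, have a suffix that marks probes shared by several transcripts. For Hoxa5 (1443803_x_at), haploid EpiSC-2 gave 148, 147 and 206 and haploid EpiSC-1 gave 325, 323 and 243, while diploid EpiSC-2 gave 214, 181 and 129 and diploid EpiSC-1 gave 129, 136 and 117. This Hoxa5 probe set, whose suffix marks probes that may also match other transcripts, held the only diploid signals above 100 and differed by 0.50 ± 0.26 (SE) (adjusted p = 0.27), while the other Hoxa5 probe set rose by 2.50. The dim Hoxa10 probe set 1446408_at differed by 0.72, the dim Hoxd13 probe set 1422239_at by 0.21 and the dim Hoxb3 probe set 1427605_at by 0.37, none of which passed.

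Between the haploid lines, most of the Hox and Cdx2 signal was lower in EpiSC-2. In haploid EpiSC-2 30 probe sets (24 genes) fell relative to haploid EpiSC-1, where 14.1% of all probe sets fell, and 1 rose, where 10.8% of all rose. Of those that fell, 21 probe sets (19 genes) fell by at least 2-fold. The median difference of the 52 probe sets was -0.74 on the log2(signal + 32) scale, beside -0.04 over all probe sets. Of the 28 probe sets higher in haploid than in diploid lines, 24 also fell in haploid EpiSC-2, and on the median such probe set haploid EpiSC-2 had 36.3% of the haploid EpiSC-1 signal. In 26 of the 28 all 3 haploid EpiSC-1 arrays lay above all 3 haploid EpiSC-2 arrays. The shares of all probe sets with a 2-fold fall, or with haploid lines apart in this way, were not counted. Nor were such shares counted among all probe sets higher in the haploid lines, so the counts of 24 and 26 have no such background beside them.

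Hoxa10 showed the largest fall, with 318 ± 67.03 in haploid EpiSC-2 and 1968 ± 100.3 in haploid EpiSC-1 (mean ± SD, n = 3), a difference of -2.53, adjusted p = 1.88e-07. Hoxa5 had 87.3 ± 16.4 in haploid EpiSC-2 and 438 ± 49.7 in haploid EpiSC-1 and differed by -1.98, adjusted p = 9.01e-07. Hoxc8 had 123 ± 12.03 in haploid EpiSC-2 and 574 ± 14.1 in haploid EpiSC-1, a difference of -1.97, adjusted p = 6.98e-07. Hoxd10 and Hoxd13 followed at -1.97 and -1.96, and Hoxc10 at -1.87. Cdx2 was lower by both probe sets, at -1.39 and -1.46, with means of 357 ± 16.3 in haploid EpiSC-2 and 991 ± 106 in haploid EpiSC-1 for 1422075_at (adjusted p = 5.42e-05). The probe sets of Hoxa9 differed by -1.77 and -1.10, of Hoxa11 by -1.53, of Hoxb9 by -1.30, of Hoxc9 by -1.54 and of Hoxd9 by -1.29. Hoxa7, which did not pass between ploidies, was also lower, with 33.2 ± 19.3 in haploid EpiSC-2 and 148 ± 39.9 in haploid EpiSC-1 and a difference of -1.48 (adjusted p = 0.00354).

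Hoxb3 (1427605_at) had signals of 8.62, 23.1 and 10.3 in haploid EpiSC-2 and 87.1, 43.7 and 82.1 in haploid EpiSC-1, against 42.9, 9.78 and 65.8 in diploid EpiSC-2 and 10.5, 11.4 and 4.90 in diploid EpiSC-1. This dim Hoxb3 probe set overlapped between ploidies and differed by -1.15 between the haploid lines, adjusted p = 0.00535. Of the probe sets higher in the haploid lines, those of Hoxb2, Hoxd1, Hoxd3 and Hoxc5 did not pass between the haploid lines. Hoxb2 had 268 ± 28.6 in haploid EpiSC-2 and 337 ± 65.5 in haploid EpiSC-1, a difference of -0.29 (adjusted p = 0.447), and Hoxd1 had 117 ± 22.1 in haploid EpiSC-2 and 96.6 ± 4.86 in haploid EpiSC-1, a difference of 0.20 (adjusted p = 0.518). Hoxc4 was lower by a smaller step, with 157 ± 24.4 in haploid EpiSC-2 and 239.7 ± 8.25 in haploid EpiSC-1 and a difference of -0.53 (adjusted p = 0.0294). The 1 probe set that rose, Hoxa4 1420226_x_at, was near background, at 23.02 ± 12.1 in haploid EpiSC-2 and 5.99 ± 2.38 in haploid EpiSC-1, and its call held in 11 of the 19 alternatives that tested it. With no pseudocount 14 of the 31 calls remained, and Cdx2 1422075_at (adjusted p = 0.0898), Hoxa9 1455626_at (0.0879) and Hoxb9 (0.0862) were among those lost. In a fit of the haploid lines alone 30 of 31 remained.

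Among the 26 Hox probe sets higher in the haploid lines, 24 had a lower mean log2 signal in haploid EpiSC-2, the exceptions being Hoxd1 and Hoxd3. The median difference between the haploid lines, on log2 signals with no pseudocount, was -0.52 for the 6 probe sets of paralogue groups 1 to 3 (from -1.67 to 0.26). It was -1.39 for the 7 of groups 4 to 8 (from -2.34 to -0.62) and -1.76 for the 13 of groups 9 to 13 (from -2.65 to -1.23). These groups of paralogues were chosen after the values had been seen, so the medians are given as a description with no test. In paralogue groups 1 to 3 signals also lay closer to background, with a median haploid minus diploid difference of 1.59, beside 2.57 for groups 4 to 8 and 2.41 for groups 9 to 13.

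**Figure D4:**
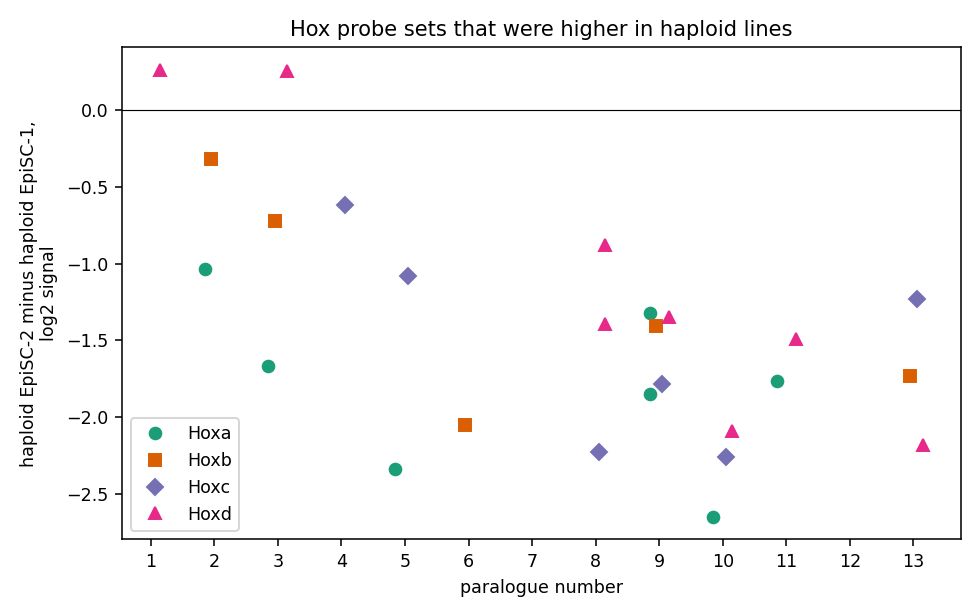
Points are the 26 Hox probe sets higher in haploid lines, with paralogue number on the horizontal axis and the haploid EpiSC-2 minus haploid EpiSC-1 difference in mean log2 signal on the vertical axis. Shape and colour give the cluster. All points of paralogue groups 9 to 13 lie between -2.65 and -1.23, while those of groups 1 to 3 spread from -1.67 to 0.26.

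Between the diploid lines few members passed the test. In diploid EpiSC-2 1 probe set rose relative to diploid EpiSC-1, where 11.2% of all probe sets rose, and 1 fell, where 14.4% of all fell. The median difference of the 52 probe sets was 0.06. The one that rose was the Hoxc5 probe set 1456301_at, with 54.9, 21.4 and 8.15 in diploid EpiSC-2 and 3.003, 3.78 and 1.21 in diploid EpiSC-1. The one that fell was Hoxa11, with 9.46, 9.92 and 23.6 in diploid EpiSC-2 and 54.3, 48.9 and 16.1 in diploid EpiSC-1. All of these signals were below the array-wide medians, and both calls were lost when diploid EpiSC-1 replicate 1 or 2 or diploid EpiSC-2 replicate 1 was left out, and when the spread came from the diploid lines alone.

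Hox proteins bind DNA together with Pbx, Meis and Prep homeodomain partners, and 4 of 8 such cofactor genes rose in the haploid lines, beside 11.7% of all genes by their brightest probe set, while none fell, beside 9.32%. With line means 2 of the 8 rose, beside 1.91% of all genes, and none fell, beside 0.77%. Meis2 averaged 354 in haploid EpiSC-2 and 596 in haploid EpiSC-1, against 31.6 in diploid EpiSC-2 and 30.6 in diploid EpiSC-1, a difference of 2.97 (adjusted p = 1.33e-06). Meis1, a leukaemia partner of Hoxa9, averaged 195 in haploid EpiSC-2 and 687 in haploid EpiSC-1, against 86.2 in diploid EpiSC-2 and 19.5 in diploid EpiSC-1, a difference of 2.39 (adjusted p = 0.000693, and 0.106 with line means). Pknox2, which encodes Prep2, differed by 2.06 (adjusted p = 1.18e-06) and Pbx2 by 0.62 (adjusted p = 0.00512, and 0.321 with line means). The same 4 genes fell in haploid EpiSC-2 relative to the other haploid line, Meis1 by 1.66, Meis2 by 0.69, Pbx2 by 0.50 and Pknox2 by 0.37 on the log2 scale, where 19.3% of all genes fell and 14.9% rose. The other 4, Pbx3, Pbx4, Meis3 and Pknox1, did not pass between ploidies.

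Of 21 listed names of antisense or noncoding transcripts of the clusters, 3 had a probe set. All 3 rose in the haploid lines, beside 11.7% of all genes. Hoxa11os, antisense to Hoxa11, averaged 82.5 in haploid EpiSC-2 and 389.9 in haploid EpiSC-1, against 12.2 in diploid EpiSC-2 and 8.57 in diploid EpiSC-1, a difference of 2.37 (adjusted p = 0.000648). Hoxd3os1 averaged 90.9 in haploid EpiSC-2 and 281 in haploid EpiSC-1, against 8.69 in diploid EpiSC-2 and 1.42 in diploid EpiSC-1, a difference of 2.42 (adjusted p = 5.81e-05). Hoxb5os averaged 73.5 in haploid EpiSC-2 and 306 in haploid EpiSC-1, against 22.6 in diploid EpiSC-2 and 29.5 in diploid EpiSC-1, a difference of 1.75 (adjusted p = 0.0105). Their haploid EpiSC-2 minus haploid EpiSC-1 differences were -1.89, -1.35 and -1.69. With line means Hoxd3os1 passed (0.0363) and Hoxa11os (0.0854) and Hoxb5os (0.154) did not, where 1.91% of all genes rose. Hoxb5 itself did not pass between ploidies, and Hoxd3 lost its call under most alternatives.

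Of 20 genes on the array that flank the clusters 4 rose and 2 fell, beside 11.7% and 9.32% of all genes, so that the share that fell is near that of all genes, and the median difference was 0.05. Evx1, a homeobox gene beside Hoxa13, rose by 1.23 (adjusted p = 0.0124), Skap2, on the opposite flank of Hoxa, by 1.12 (0.0308), Mtx2, beside Hoxd, by 0.37 (0.012) and Hibadh, on the Evx1 side of Hoxa, by 0.37 (0.0475). Atp5g2 fell by 0.27 (0.0122) and Hnrnpa1 by 0.34 (0.0312), both beside Hoxc, on the log2 scale. None of the 6 passed with line means. Of the 3 other ParaHox genes, relatives of Cdx, only Pdx1, a pancreatic regulator, passed, at 0.75 (adjusted p = 0.0298), and none of the 3 exceeded the array-wide median in any line.

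Retinoic acid is a known inducer of Hox genes. Of 17 genes of its pathway 5 rose and none fell, beside 11.7% and 9.32% of all genes, with a median difference of 0.37. Crabp1, a retinoic acid binding protein gene, rose by 2.41 (adjusted p = 1.46e-07), Crabp2 by 2.10 (0.000702), the receptor gene Rarb by 1.39 (0.00521) and Dhrs3, which encodes a retinaldehyde reductase, by 1.26 (0.01). With line means 1 of the 5 calls remained. In haploid EpiSC-2 6 pathway genes were lower and 2 higher relative to haploid EpiSC-1, beside 19.3% and 14.9% of all genes.

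**Figure D5:**
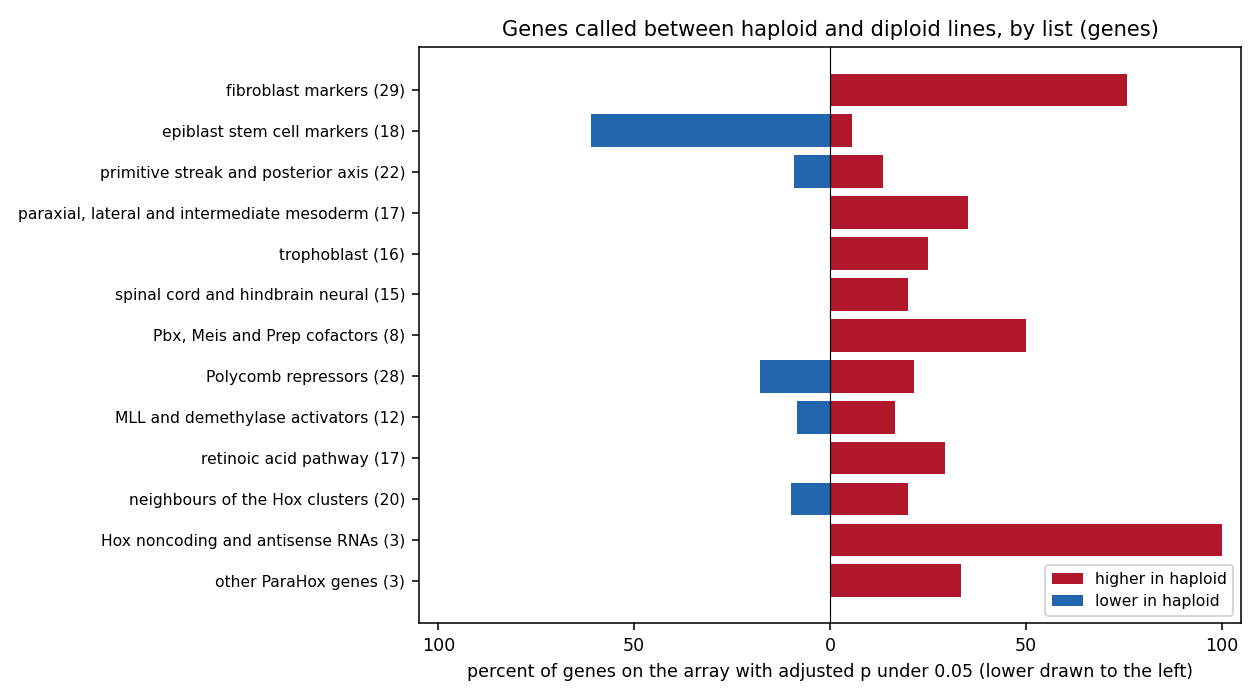
Bars give the percent of the genes of each list on the array (number in brackets) with an adjusted p under 0.05 between ploidies, those higher in the haploid lines to the right and those lower to the left. The Hox antisense and noncoding RNAs (3 of 3), fibroblast markers (22 of 29) and cofactors (4 of 8) reach furthest to the right, and the epiblast stem cell markers (11 of 18) furthest to the left.

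Markers of other cell types were also compared between the lines. Fibroblast markers, of which 22 of 29 rose and none fell between haploid and diploid lines, had a median difference of 2.17. The shares over all genes were 11.7% higher and 9.32% lower, and with line means 13 of the 29 markers rose and none fell. The leading ones were Col3a1 (6.06), Postn (4.33), Prrx1 (3.91) and Col1a2 (4.12). The summed signal of the 29 markers was 72207 to 73545 in haploid EpiSC-2 and 77730 to 79010 in haploid EpiSC-1, against 40294 to 40865 in diploid EpiSC-2 and 11876 to 12704 in diploid EpiSC-1. These sums differed between the diploid lines. Most Hox and Cdx signals were near background in both diploid lines, so their median difference there, 0.06, cannot be compared with these sums. Vim and Sparc, which are bright in most lines, made up much of these sums, with Vim at 17085 in haploid EpiSC-2 and 19074 in haploid EpiSC-1, against 19178 in diploid EpiSC-2 and 5280 in diploid EpiSC-1. Col3a1 averaged 7309 in haploid EpiSC-2 and 8147 in haploid EpiSC-1, against 130.1 in diploid EpiSC-2 and 51.8 in diploid EpiSC-1. Between the haploid lines 11 of the 29 markers were lower in haploid EpiSC-2 and 4 higher, beside 19.3% and 14.9% of all genes. The median difference of the markers between these lines was -0.16, beside -0.74 for the Hox and Cdx probe sets. Part of this list also had signal in the diploid lines, with 17 of 29 above the array-wide median in diploid EpiSC-2 and 11 in diploid EpiSC-1, against 25 in haploid EpiSC-2 and 24 in haploid EpiSC-1. Bulk arrays do not show which cells gave these signals. The part of fibroblast-like cells in the Hox difference was not tested.

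Cdx2 is also a trophoblast gene. Of 16 trophoblast markers on the array, Cdx2 not among them, 4 rose and none fell, beside 11.7% and 9.32% of all genes. Those that rose were Gata3 (2.43), Plac1 (1.01), Tfap2c (1.87) and Gata2 (1.19), and the median difference of the 16 was 0.06. None passed with line means, beside 1.91% of all genes that rose and 0.77% that fell. In haploid EpiSC-2 6 of the 16 markers were lower and 2 higher than in haploid EpiSC-1, beside 19.3% and 14.9% of all genes. The sum of the 16 markers was 12548 to 12909 in haploid EpiSC-2 and 17680 to 18183 in haploid EpiSC-1, against 27453 to 29031 in diploid EpiSC-2 and 9355 to 9762 in diploid EpiSC-1. The keratin genes Krt8 and Krt18, which epithelia express widely, made up most of the sum in diploid EpiSC-2, at 14315 and 12513. Gata3 averaged 118 in haploid EpiSC-2 and 471 in haploid EpiSC-1, against 22.5 in diploid EpiSC-2 and 17.7 in diploid EpiSC-1. The part of trophoblast-like cells in the Cdx2 difference was not tested. Epiblast stem cell markers fell in 11 of 18 genes and Sox2 rose, beside 9.32% and 11.7% of all genes, with a median difference of -0.74. With line means 3 of the 18 fell and Sox2 rose. Epcam fell by 1.10 and Tdgf1 and Cdh1 by 1.06 and 1.46 on the log2 scale. The sum of the 18 markers was 65433 to 67295 in haploid EpiSC-2 and 47206 to 47347 in haploid EpiSC-1, against 94212 to 97001 in diploid EpiSC-2 and 102603 to 107128 in diploid EpiSC-1. Between the haploid lines 14 of the 18 markers were higher in haploid EpiSC-2 and 2 lower, beside 14.9% and 19.3% of all genes. The part of these markers in the Hox difference was not tested.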

How the data were processed

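Total RNA of 12 samples was measured on Affymetrix mouse 430 2.0 arrays. The authors deposited linear signal intensities made with MAS5 (per the submitters' processing notes), with no version stated in these sources. The MAS5 method corrects for mismatch probes, and values near background are noisy. Precision is limited by how many arrays there are. Of 45101 probe sets 64 controls were left out, and of the rest 34945 had 1 symbol, 932 several and 9160 none.

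Here log2(signal + 32) was fitted with limma 3.58.1 in R 4.3.3, with an intensity trend and Benjamini-Hochberg adjustment over 45037 probe sets, two-sided. Haploid and diploid lines were compared with line as a random block (statmod 1.5.0, correlation 0.433), and the lines of a ploidy in a fit of 4 group means over all 12 arrays. Each list gene was counted by its brightest probe set. Olfactory receptor probe sets numbered 43, fewer than the 50 required to set the background, so the median of all probe sets was used. The 3 fits (random block, line means, lines of a ploidy) were tested on simulated data. Each recovered most changed probe sets, all of which were brighter than the median. With lines that varied the random block fit made more false calls than true ones. It was kept as the main fit because the design had been set. Alternatives were another pseudocount or none, a signal filter, median centring, quantile normalization, no trend, a replicate block, line means, no line block, the lines of a ploidy alone, and leaving out each line or array.

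Members and lists were chosen with earlier results of these data known. Values on each array were given for the Cdx genes, for members called between ploidies with arrays apart, and for members differing at least 2-fold between lines. Up to 4 genes with the lowest p were named from each other list, and every called cofactor, ParaHox, noncoding and neighbour gene.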

Additional observations from a re-analysis of the deposited data

How the results depend on the processing

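No member called in the haploid against diploid comparison, or between the lines of a ploidy, changed sign under any alternative that tested it (25 for the ploidies and 20 between lines). Of the 28 member probe sets called between ploidies, 26 to 28 were called under every other alternative except 15 with line means as the units and 11 with the signal filter, which left 12 members to test, 25 without diploid EpiSC-1 and 23 without haploid EpiSC-1. Over all probe sets the calls numbered 6836, against 957 with line means, 3642 with the filter and 11139 with no line block. Of these calls 57.8% were higher, and 44.6% with arrays centred on their medians, which moved the median of all probe sets to -0.05. Between the haploid lines 31 member probe sets were called, against 14 with no pseudocount and 11 with the filter. Of all calls between the haploid lines 43.5% were higher, and 64.9% with centred arrays. Between the diploid lines 2 were called, and 1 with the larger pseudocount, the filter, no trend or the replicate block, 1 other member with the diploid lines alone, and 0 to 4 when single arrays were left out. Replicate numbers did not pair the samples, since the deviations of same-numbered arrays correlated at -0.04 to 0.13 over 18 pairs. With the replicate block 26 of the 28 ploidy calls (5946 over all probe sets) and 30 of the 31 haploid line calls remained. The filter and line means test fewer probe sets or samples, and otherwise the cause was not tested. Signal near background limits all folds against the diploid lines.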

Other observations

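Of 28 Polycomb genes on the array, regulators of the Hox clusters, 6 rose and 5 fell in haploid lines, beside 11.7% and 9.32% of all genes, with a median difference of -0.06 in log2(signal + 32). Bmi1, a subunit of Polycomb repressive complex 1, rose by 1.79 (adjusted p = 1.94e-05) and Phc2 by 1.04 (0.000107), while Phc1 fell by 0.73 (0.000112) and Cbx7 by 1.03 (0.000167). With line means 1 of these 28 genes passed. Of 12 genes of MLL complexes and demethylases 2 rose (Kat6a by 0.97 and Kdm6b by 0.48) and Dpy30 fell by 0.41, near the shares of all genes, with none passing under line means.

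Markers of tissues that use Hox genes in the embryo were called in part. Of 17 mesoderm genes 6 rose and none fell, beside 11.7% and 9.32% of all genes, led by Bmp4 (2.93), Foxc1 (1.86), Pax3 (2.03) and Tcf15 (1.17), and 3 passed with line means. Of 22 primitive streak and posterior axis genes 3 rose and 2 fell, near those shares, and with line means none rose and 1 fell, with Fgf4 at -2.01, Sp8 at 1.34, Dll3 at -0.97 and Nkx1-2 at 1.89. Of 15 spinal cord and hindbrain genes 3 rose, Pax3, Sox1 (1.64) and Mnx1 (0.96), and 2 passed with line means. In haploid EpiSC-2 11 streak genes were higher and 2 lower than in haploid EpiSC-1, beside 14.9% and 19.3% of all genes, with a median difference of 0.42, opposite in sign to that of the Hox and Cdx members.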
